A study of Mus musculus with 12 samples.

Results

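The genes described here encode 10 members of the BCL2 family, the proteins that decide whether a cell keeps its mitochondria intact or undergoes apoptosis. They were chosen by name, and all 10 were found among the 13283 genes with an FPKM (fragments per kilobase of exon, scaled to library size). The RNA was that of CTL (cytotoxic T lymphocytes, the effector form of CD8+ T cells) from mice, in 4 groups of 3 biological replicates. WT CTL came from control mice with the GzmB cre+ allele alone. FOXO1-GFP KO CTL came from mice that also carried FOXO1-GFPfl/fl, in which a Cre recombinase driven by the granzyme B promoter removes a floxed exon of Foxo1, so that both genotypes carried the Cre. The mice were female and aged 11 to 27 weeks. Cells were activated with antibodies to CD3 and CD28 for 48 h and expanded with the cytokines IL-12 at 2 ng/mL and IL-2 at 20 ng/mL. On day 6 each genotype was given DMSO as vehicle, or IC87114 at 10 µM, which blocks the p110δ subunit of PI3K and is called PI3Kdi, and both were left for 24 h. Before RNA extraction dead cells were excluded by sorting, WT CTL as DAPI-CD8+ and FOXO1-GFP KO CTL as DAPI-CD8+GFP-, and this difference in gate and the genotype cannot be told apart.

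Apoptosis through the mitochondria is executed by the effectors BAX and BAK, which form pores in the outer mitochondrial membrane. BCL2, BCL-XL (encoded by Bcl2l1) and MCL1 hold the effectors and their activators in check, whereas the BH3-only proteins BIM (Bcl2l11), PUMA (Bbc3), NOXA (Pmaip1), BID and BMF neutralise these guardians or activate the effectors directly. In T cells BIM opposes BCL2 during the contraction of responses, and FOXO transcription factors, which PI3K and AKT keep out of the nucleus, are known activators of Bcl2l11 and Bbc3. The comparisons therefore ask which of these mRNA differ after 24 h without p110δ activity and whether the response differs in CTL without FOXO1.

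Because FOXO1 was deleted in 6 of the 12 libraries, the promoters of the members were read for the FOXO element GTAAACA on either strand. Windows from 250 bases before to 50 after each RefSeq start site (GRCm38.p6) were read for 9 members, 16 windows in all. The element was found in 1 window of Bcl2l11 and 1 of Bbc3, against 3.65% of the 32851 windows of all genes. In the first Bcl2l11 window (chr2:128125788-128126087, plus strand) it began 227 bases before the start, and in the second Bbc3 window (chr7:16310011-16310310, plus strand) 167 bases before it. The Bcl2 window (chr1:106714241-106714540, minus strand) had no match. These windows are printed 5′ to 3′ with the match in capitals, the first pair because they hold it and Bcl2 because it is the guardian opposed by BIM.
Bcl2l11: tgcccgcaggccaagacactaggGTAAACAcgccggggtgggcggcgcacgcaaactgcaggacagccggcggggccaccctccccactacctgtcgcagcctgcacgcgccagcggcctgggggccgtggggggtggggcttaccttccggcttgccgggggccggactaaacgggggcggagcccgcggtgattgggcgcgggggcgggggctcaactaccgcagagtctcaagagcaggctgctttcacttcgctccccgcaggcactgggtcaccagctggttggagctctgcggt
Bbc3: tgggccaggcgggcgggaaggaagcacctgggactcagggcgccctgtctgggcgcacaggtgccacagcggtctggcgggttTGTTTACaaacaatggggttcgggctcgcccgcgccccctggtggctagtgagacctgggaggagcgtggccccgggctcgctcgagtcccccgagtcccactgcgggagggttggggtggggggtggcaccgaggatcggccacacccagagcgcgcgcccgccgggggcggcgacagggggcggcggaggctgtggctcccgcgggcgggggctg
Bcl2: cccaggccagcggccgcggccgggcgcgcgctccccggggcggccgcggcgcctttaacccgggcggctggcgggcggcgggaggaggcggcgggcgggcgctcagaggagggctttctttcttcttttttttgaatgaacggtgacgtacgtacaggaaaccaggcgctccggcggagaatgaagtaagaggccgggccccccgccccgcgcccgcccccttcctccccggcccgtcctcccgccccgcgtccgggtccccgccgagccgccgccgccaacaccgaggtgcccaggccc
A match in these letters is a description of the window and not a measured binding site.

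Foxo1 was at 5.77 to 10.46 FPKM in the 6 WT libraries and at 0.58 to 1.75 FPKM in the 6 FOXO1-GFP KO libraries, which checks the genotype labels. The depth of a library, worked out from the steps between its lowest values, was 12860000 to 48010000 reads. Of the CD8 T cell markers all 7 were measured, with a summed level of 8400 to 12300 FPKM. Most of this sum was Gzmb, at 7317 to 10960 FPKM, while Cd8a was at 139.1 to 253.2 FPKM. Of 8 B cell markers 5 were tested, and their sum was 19.3 to 25.8 FPKM in the WT groups but 8.51 to 11.7 FPKM in the FOXO1-GFP KO groups, where Igkc was listed at 0 in all 3 libraries with PI3Kdi. Ms4a1 and Cd79a, which mark B cells, were not among the genes tested. In bulk RNA fewer cells of a type and less mRNA per cell cannot be told apart, and the part of these traces in the results below was not tested.

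FPKM is scaled by exon length, so levels were set side by side between genes, as far as the length used for each gene holds. The guardians and effectors were more abundant in CTL than the BH3-only members. Bak1 had the highest level, 103 ± 5.44 FPKM (SD over 12 libraries), followed by Mcl1 at 88.9 ± 3.44, Bax at 63.5 ± 12.8, Bcl2 at 50.8 ± 7.20 and Bcl2l1 at 48.9 ± 4.66 FPKM. Among the BH3-only members Pmaip1 led with 11.4 ± 1.42 FPKM, then came Bcl2l11 at 7.62 ± 2.95, Bid at 7.51 ± 1.29, Bbc3 at 5.997 ± 1.42 and Bmf at 0.463 ± 0.280 FPKM. Bak1 lay above 96.6% of all genes. Of the BH3-only members Pmaip1 lay above 69.0%, Bcl2l11 above 59.3%, Bid above 58.9%, Bbc3 above 53.8% and Bmf above 13.2%.

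The order was the same in every library at some steps and not at others. An error in the exon length of a gene would be shared by all libraries, so their agreement does not test it. Bak1 exceeded Mcl1, and Mcl1 exceeded Bax, in 12 of 12 libraries, whereas Bcl2 exceeded Bcl2l1 in 6 of 12 and Bcl2l11 exceeded Bid in 5 of 12. Bax was above Bcl2 in 10 of 12 libraries. The gap between the lowest guardian and the highest BH3-only member held in every library, as the lowest Bcl2l1 value was 42.03 and the highest Pmaip1 value 14.14 FPKM. Each member except Bmf had at least 132 estimated reads in every library, and Bmf had 21.1 to 125.

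**Figure D1:**
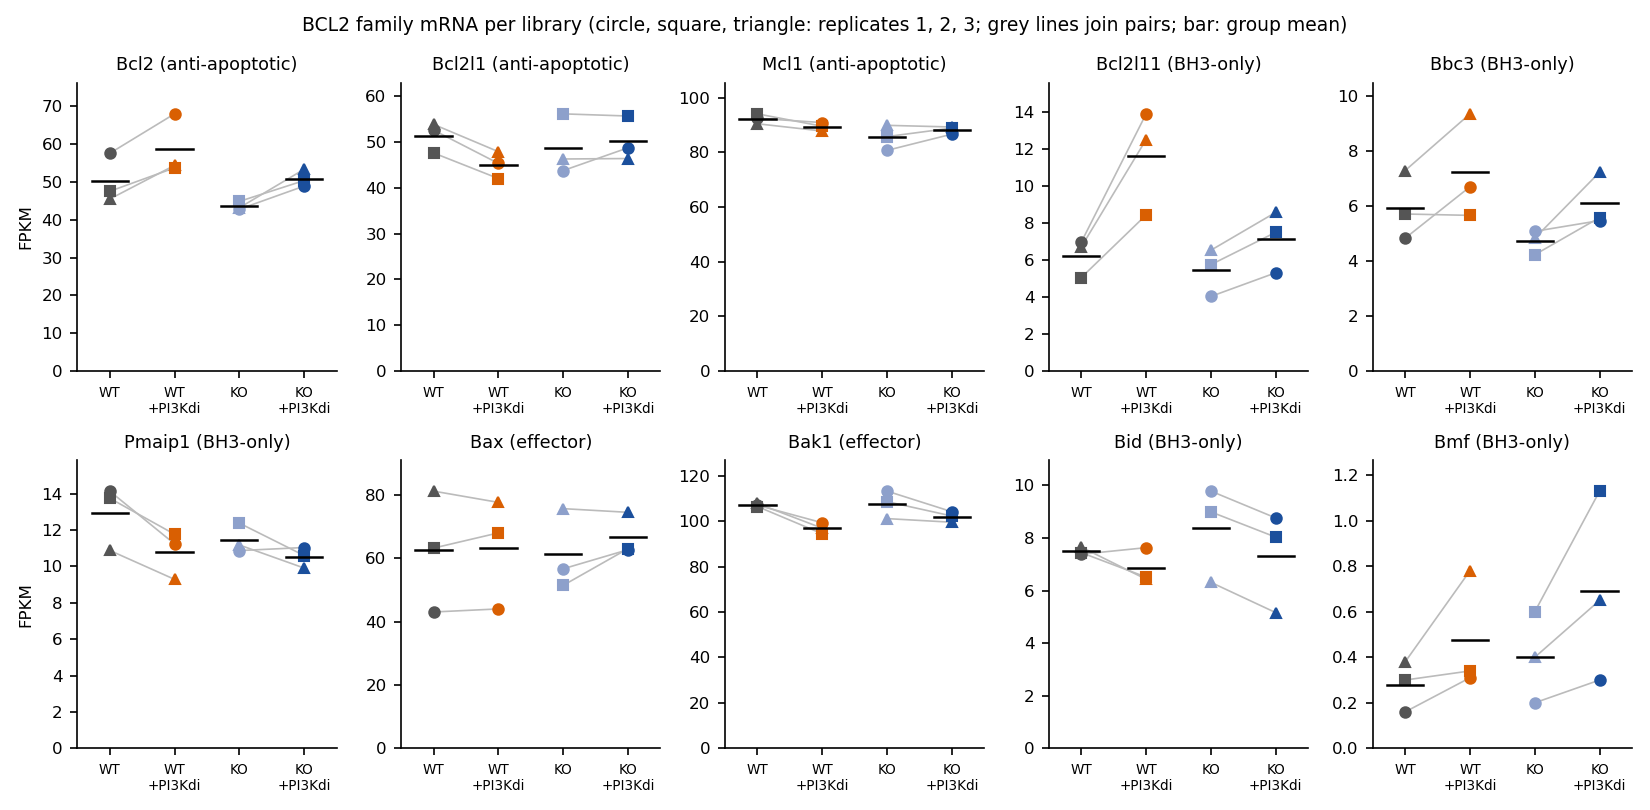
FPKM of each of the 10 BCL2 family mRNA (vertical axis, starting at 0) in the 4 groups, where KO is FOXO1-GFP KO; symbols are replicates 1 to 3, grey lines join vehicle and PI3Kdi libraries of a replicate, and bars are group means. Bcl2l11 stands out in WT CTL, with 8.45 to 13.92 FPKM under PI3Kdi and 5.06 to 6.98 FPKM without.

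Inhibition of p110δ in WT CTL was accompanied by more Bcl2l11 mRNA, which encodes the BH3-only protein BIM, in every replicate. Bcl2l11 (ENSMUSG00000027381, chr2:128126038-128162547 on the plus strand of GRCm38) was at 6.98, 5.06 and 6.72 FPKM in WT replicates 1 to 3 and at 13.92, 8.45 and 12.53 FPKM with PI3Kdi. The lowest library with PI3Kdi was thus above the highest without, and the replicates with the highest and lowest values kept their places. From 6.25 ± 1.04 to 11.6 ± 2.84 FPKM (SD, n = 3) the log2 fold change was 0.87 with a 95% interval of 0.33 to 1.41, and the FPKM ratios of the pairs were 1.994, 1.67 and 1.865.

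Without the pairing limma did not call Bcl2l11 (adjusted p = 0.385), nor any other member, in a comparison where 0.0979% of all genes were called at an adjusted p under 0.05 and a fold change over 1.5. At an unadjusted p under 0.05 there was 1 member, Bcl2l11, against 5.14% of all genes, and voom on estimated reads also called 0 and gave 1 at that level. When the vehicle and PI3Kdi libraries of a replicate were treated as a pair within their genotype (a replicate block in limma), Bcl2l11 rose with an adjusted p of 0.000352 and an interval of 0.65 to 1.08, and it was the 1 member called, where 2.57% of genes were called. At an unadjusted p under 0.05 the blocked fit gave 7 of the 10 members, against 23.7% of all genes. Leaving out each of the 6 libraries in turn from the blocked fit gave log2 fold changes of 0.79 to 0.97 and adjusted p from 0.00134 to 0.00501. Over all 10 members the median log2 fold change was -0.01, against -0.04 over all genes.

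Among the guardians, Bcl2 mRNA was higher and Bcl2l1 lower with PI3Kdi in all 3 WT pairs, both by less than 1.5-fold. Bcl2 (ENSMUSG00000057329, chr1:106538178-106714274, minus strand) was at 57.57, 47.53 and 45.48 FPKM without and 68.01, 53.73 and 54.39 FPKM with PI3Kdi. Replicate 1 was the highest library in both groups, which overlap. The log2 fold change of 0.22 had an adjusted p of 0.9997 without the block and 0.0231 with it. Bcl2l1 was at 52.59, 47.61 and 53.85 FPKM without and 45.33, 42.03 and 47.89 FPKM with PI3Kdi. The difference was -0.19 on the log2 scale, and the blocked adjusted p was 0.0507. Mcl1, a short-lived guardian, stayed within 87.85 to 94.13 FPKM in these 6 libraries, with a log2 fold change of -0.05 and an interval of -0.21 to 0.12.

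The other death genes moved by less than the fold threshold of 1.5 in WT CTL or were too low to resolve. Pmaip1, which encodes NOXA, an antagonist of MCL1, was at 14.14, 13.75 and 10.88 FPKM without and 11.24, 11.77 and 9.29 FPKM with PI3Kdi, so each pair was lower and the groups overlapped. Its log2 fold change was -0.26, with an adjusted p of 0.0285 with the block. Bak1 was at 106.44 to 107.77 FPKM without and 94.45 to 99.29 FPKM with PI3Kdi, a narrow separation of -0.14 on the log2 scale, for which the block gave an adjusted p of 0.0489. Bak1 and Bcl2l11 were the 2 members whose WT libraries did not overlap, 1 in each direction, against 5.81% of all genes below and 4.43% above. Bbc3 (PUMA) gave a log2 fold change of 0.27 (interval -0.18 to 0.71), Bid -0.13 (-0.57 to 0.31), Bax 0.02 (-0.53 to 0.58) and Bmf 0.56 (-0.44 to 1.55). With the block 4 of the 10 members had an adjusted p under 0.05 at any fold, Bcl2 and Bcl2l11 upwards (3.88% of all genes) and Pmaip1 and Bak1 downwards (3.53%). For Pmaip1 and Bak1 this was lost whichever 1 of the 6 libraries was left out, with adjusted p of 0.0514 to 0.151 and 0.101 to 0.198. Their log2 fold changes stayed at -0.299 to -0.215 and -0.163 to -0.13 in these fits. For Bcl2 the adjusted p was 0.0469 without WT+PI3Kdi replicate 2 but up to 0.125 without the others. Counted by pairs, 3 members were higher in all 3 pairs (Bcl2, Bcl2l11 and Bmf), as were 16.7% of all genes, and 4 were lower (Bcl2l1, Mcl1, Pmaip1 and Bak1), as were 29.5%.

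In FOXO1-GFP KO CTL the same 24 h of inhibitor gave a smaller difference in Bcl2l11. The libraries had 4.04, 5.76 and 6.54 FPKM without and 5.32, 7.51 and 8.59 FPKM with PI3Kdi, so that each replicate was higher while the groups overlapped. The pair ratios were 1.317, 1.304 and 1.313. The log2 fold change was 0.38 (interval -0.15 to 0.92, adjusted p = 0.933), and with the block the adjusted p was 0.0323, at a fold change of 1.31 that is under the threshold.

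No member was called in FOXO1-GFP KO CTL by limma with or without the block, where 0.0452% of genes were called without it and 2.79% with it. Unadjusted p values under 0.05 were given by 0 members without and 5 with the block, against 5.17% and 29.5% of all genes, and voom on estimated reads also called 0. Bcl2 was at 42.79, 44.86 and 43.17 FPKM without and 48.91, 50.37 and 53.36 FPKM with PI3Kdi, so the groups did not overlap. Its log2 fold change was 0.22, as in WT CTL, and its adjusted p with the block was 0.0226. Bcl2 and Bcl2l11 were the 2 members with a blocked adjusted p under 0.05 at any fold, both upwards, against 6.02% of all genes. Leaving out FOXO1-GFP KO+PI3Kdi replicate 1 kept both (adjusted p 0.0359 and 0.0421), and leaving out any of the other 5 libraries lost both, with values of up to 0.130 for Bcl2 and 0.147 for Bcl2l11. Bbc3 did not overlap either, with 4.23 to 5.08 FPKM against 5.47 to 7.23 FPKM, a difference of 0.36 on the log2 scale with a blocked adjusted p of 0.0610. These 2 members stood above without overlap, as did 5.28% of all genes. For the other members the log2 fold changes were 0.05 for Bcl2l1 and Mcl1, -0.08 for Bak1, -0.12 for Pmaip1, 0.14 for Bax, -0.20 for Bid and 0.60 for Bmf. In all 3 pairs 4 members were higher (Bcl2, Bcl2l11, Bbc3 and Bmf), as were 23.1% of all genes, and 2 were lower (Bak1 and Bid), as were 26.4%. The median over the members was 0.09, against -0.02 over all genes.

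**Figure D2:**
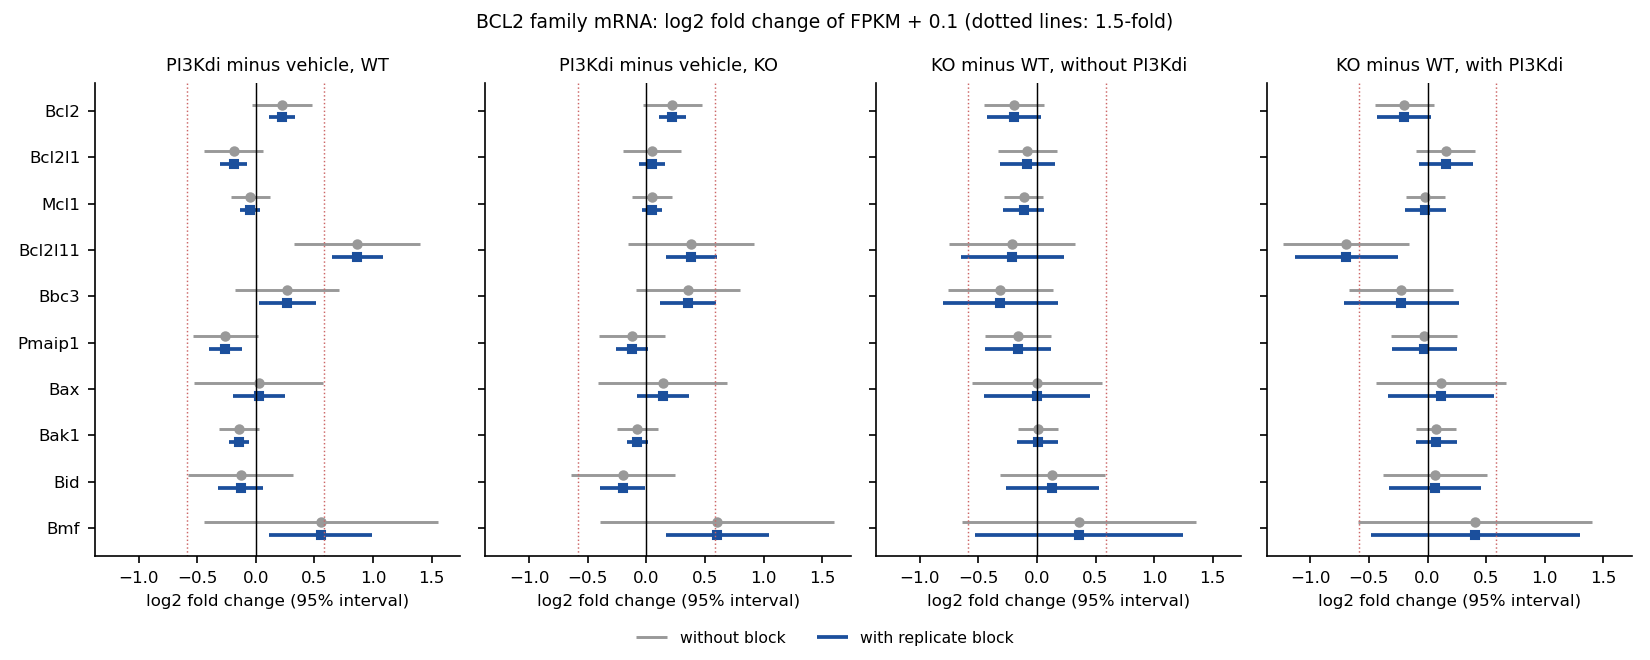
Log2 fold changes of the 10 members on the FPKM + 0.1 scale with 95% intervals (horizontal axis) in 4 comparisons, where KO is FOXO1-GFP KO; grey circles are fits without a block and blue squares fits that pair replicates in each genotype, and dotted lines mark a 1.5-fold change. The blocked interval of Bcl2l11 in WT CTL, 0.65 to 1.08, lies beyond the 1.5-fold line.

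Did the response of Bcl2l11 differ between genotypes? The difference of its log2 responses, FOXO1-GFP KO less WT, was -0.48 with an interval of -1.24 to 0.28. With the block the interval was -0.79 to -0.18, the unadjusted p 0.00476 and the adjusted p 0.208, so the difference did not pass after adjustment over all genes. No member was called in this comparison, in which 0% of genes were called without and 0.0226% with the block. At an unadjusted p under 0.05 2 members, Bcl2l11 and Bcl2l1, were found with the block (10.8% of all genes) and 0 without it (1.51%). For Bcl2l1, the mRNA of BCL-XL, the difference was 0.24 (blocked interval 0.07 to 0.40, adjusted p = 0.255), as its WT pairs had ratios of 0.86 to 0.89 and its FOXO1-GFP KO pairs 0.99 to 1.11. Bcl2 gave a difference of 0.00 with a blocked interval of -0.16 to 0.16.

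Loss of FOXO1 by itself was accompanied by estimates within the 1.5-fold threshold for every member, although several intervals reached beyond it. Between FOXO1-GFP KO and WT CTL without PI3Kdi no member was called by limma with or without the block (0.331% and 0.233% of genes), 0 had an unadjusted p under 0.05 (6.51% and 5.09% of genes) and voom called 0. The largest log2 fold changes were 0.36 for Bmf (interval -0.64 to 1.36) and -0.31 for Bbc3 (-0.76 to 0.13). Bcl2l11, at 4.04 to 6.54 FPKM in FOXO1-GFP KO and 5.06 to 6.98 FPKM in WT CTL, gave -0.21 (-0.75 to 0.33), and the groups overlapped. Bcl2 was at 42.79 to 44.86 FPKM and Mcl1 at 80.77 to 89.93 FPKM in FOXO1-GFP KO, both below all 3 WT libraries, as were 6.79% of all genes. Their log2 fold changes were -0.20 and -0.11.

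With PI3Kdi in both genotypes Bcl2l11 was the member that differed most, although it was not called. It had 5.32 to 8.59 FPKM in FOXO1-GFP KO and 8.45 to 13.92 FPKM in WT CTL, and one library of each group overlapped. The mean was 7.14 ± 1.67 against 11.6 ± 2.84 FPKM (SD, n = 3). The log2 fold change was -0.69 with an interval of -1.23 to -0.16, and the adjusted p was 0.287 without and 0.184 with the block. Of the 10 members 0 were called, with 1.45% of all genes called without and 1.18% with the block. Bcl2l11 was the 1 member at an unadjusted p under 0.05 in voom and in the fits without and with the block (10.2% and 9% of genes). The study lists Bcl2l11 among its FOXO1-dependent mRNA, called in its voom fit at the same thresholds. The fold change it lists for this comparison is close to the 0.62 found here, so the call differs and the size does not. To be listed, an mRNA had to rise with PI3Kdi in WT cells and be lower without FOXO1 under PI3Kdi. Voom on estimated reads gave Bcl2l11 an adjusted p of 0.264 without and 0.126 with the block here. Why the calls differ was not tested. Bcl2 was again lower in FOXO1-GFP KO, at 48.91 to 53.36 FPKM against 53.73 to 68.01 FPKM (7.90% of genes were below without overlap), and Bak1 higher, at 99.52 to 104.15 FPKM against 94.45 to 99.29 FPKM (6.85% above).

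The members differed in how much of their variation lay between replicates. When the sum of squares of log2 values was split, pairs within a genotype held 65.1% for the median gene. The share was 93.1% for Bax, 79.4% for Bid, 65.9% for Bcl2l1 and 65.1% for Bmf. It was lower for the other 6 members, at 48.3% for Pmaip1, 41.7% for Bbc3, 34.6% for Mcl1, 34.2% for Bcl2, 30.9% for Bcl2l11 and 23.6% for Bak1. For Bcl2l11 the remainder after genotype, inhibitor, their interaction and pairs was 0.59%. For Bax the pair share was a spread from 43.07 to 81.26 FPKM in WT CTL, with 44.04 to 77.70 FPKM in the same replicates under PI3Kdi. Replicate 3 had the highest Bax value in all 4 groups. The inhibitor held 57.8% for Bak1, 41.0% for Bcl2l11, 36.0% for Bcl2 and 33.2% for Pmaip1, against 6.39% for the median gene. Genotype held 36.3% for Mcl1, 28% for Bcl2, 21.3% for Bcl2l11 and 19.9% for Bbc3, against 8.27% for the median gene. In absolute terms Mcl1 and Bak1 were steady, with SDs of 0.06 and 0.08 on the log2 scale, and only 0.434% and 2.15% of the 10368 genes that averaged 1 FPKM or more had smaller ones, while the SD of Bcl2l11 was 0.51.

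**Figure D3:**
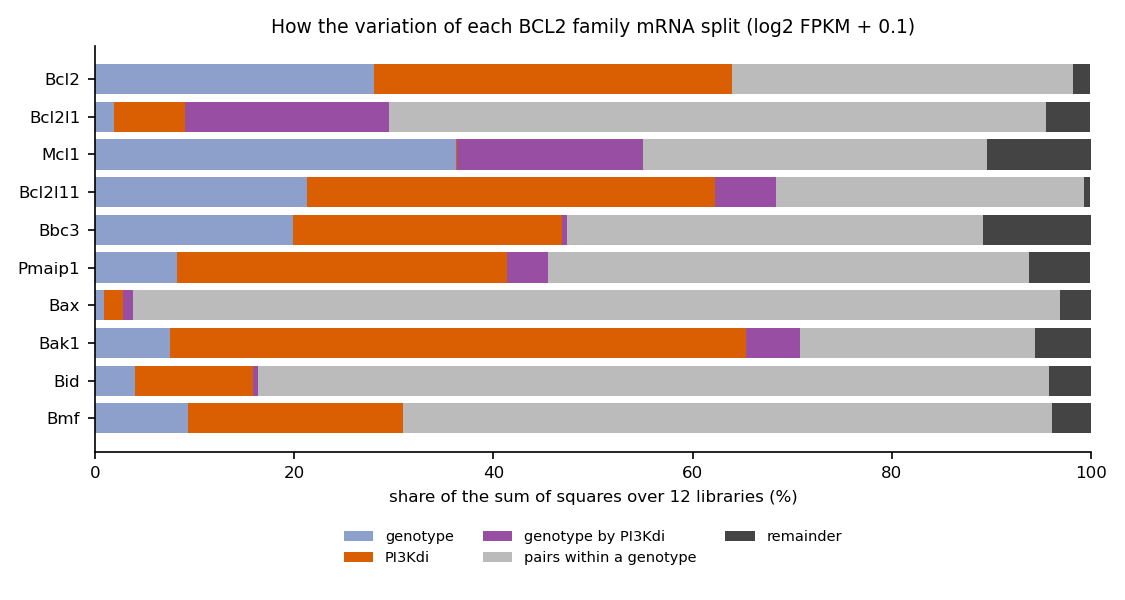
Share of the sum of squares of log2(FPKM + 0.1) over 12 libraries (horizontal axis, percent) that lay between genotypes, with PI3Kdi, in their interaction, between pairs within a genotype and in the remainder, for each member. Pairs took 93.1% for Bax, and PI3Kdi 57.8% for Bak1 and 41.0% for Bcl2l11.

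The make-up of the 3 classes was then described without a test. Mcl1 was the main guardian mRNA in every library, with 44.5 to 50.1% of the summed FPKM of Bcl2, Bcl2l1 and Mcl1. The Bcl2 share was 25.8 ± 2.31% without and 30.3 ± 2.60% with PI3Kdi in WT CTL (SD, n = 3). In FOXO1-GFP KO CTL it was 24.6 ± 0.886% without and 26.9 ± 1.23% with PI3Kdi. The guardian sum itself was 167 to 204 FPKM. Bak1 took 55.5 to 71.3% of the effector sum.

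In the BH3-only class Pmaip1 had the highest level in all 3 WT libraries, whereas with PI3Kdi Bcl2l11 exceeded it in replicates 1 and 3 and not in replicate 2. Pmaip1 had 39.3 ± 5.41% of the class in WT and 29.5 ± 5.97% in WT+PI3Kdi (SD, n = 3). Bcl2l11 had 19.0 ± 2.86% and 31.1 ± 4.76%, whereas in FOXO1-GFP KO CTL its share was 18.0 ± 4.44% without and 22.4 ± 5.02% with PI3Kdi. Relative to the guardian Bcl2, Bcl2l11 mRNA stood at 0.121, 0.106 and 0.148 in WT replicates 1 to 3 and at 0.205, 0.157 and 0.230 with PI3Kdi, with no overlap. In FOXO1-GFP KO CTL the ratio was 0.0944 to 0.151 without and 0.109 to 0.161 with PI3Kdi, which overlap. The ratio of Pmaip1 to Mcl1 was 0.106 to 0.153 and that of Bax to Bcl2 0.648 to 1.79 over all libraries.

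**Figure D4:**
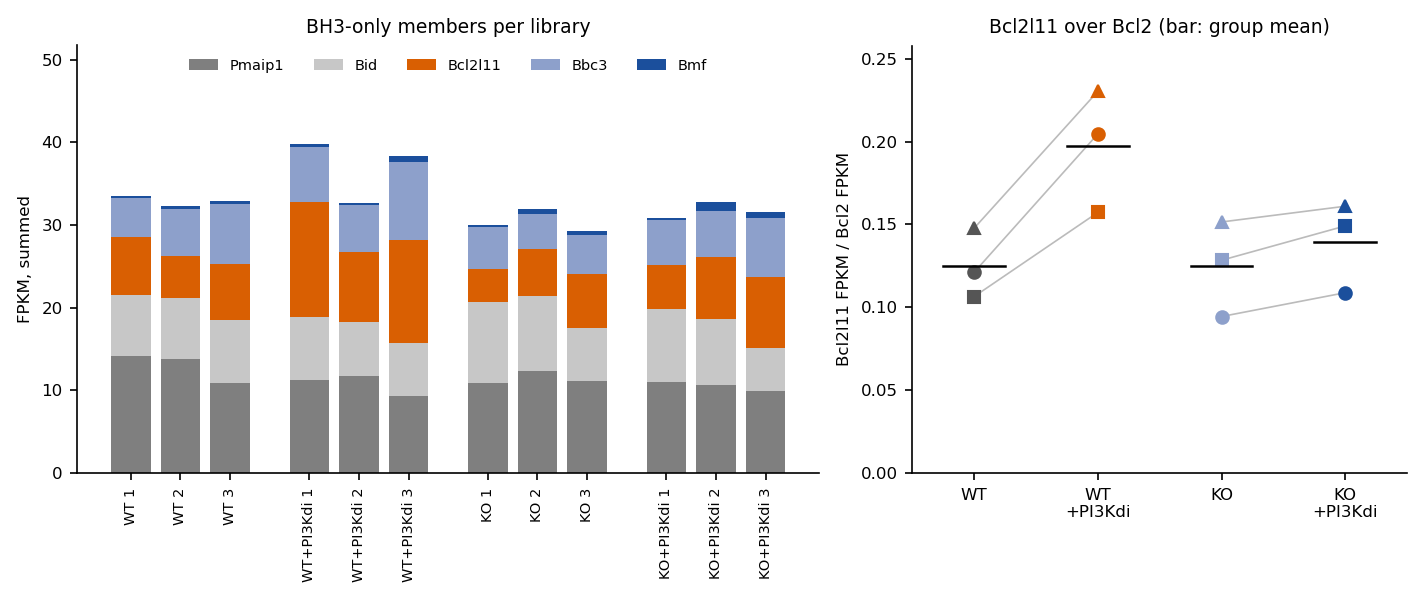
Left, summed FPKM of the 5 BH3-only mRNA in each library, coloured by gene; right, the ratio of Bcl2l11 to Bcl2 FPKM per library, with grey lines joining pairs and bars at group means, where KO is FOXO1-GFP KO. The ratio was 0.157 to 0.230 in WT+PI3Kdi and 0.0944 to 0.161 in the other 3 groups.

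Other apoptosis genes were examined in 4 lists. Of 17 further BCL2 family genes 11 were measured, and limma without the block called 1, Bnip3, a mitophagy receptor related to the BH3-only proteins. Bnip3 was at 110.8 to 146.6 FPKM in WT and 61.33 to 70.28 FPKM in FOXO1-GFP KO CTL. It fell by 0.97 on the log2 scale (adjusted p = 0.0239), where 0.331% of all genes were called. With PI3Kdi in both genotypes it fell by 0.83 (adjusted p = 0.0208), where 1.45% of all genes were called. With 1 library left out the call was kept in 1 of 6 fits in the first comparison (without WT replicate 3; adjusted p up to 0.121) and in 3 of 6 in the second, where it was lost without WT+PI3Kdi replicate 2 or FOXO1-GFP KO+PI3Kdi replicate 2 or 3 (up to 0.0937). The block added 2 genes lower with PI3Kdi in WT CTL, where 2.57% of all genes were called with it. They were Bcl2a1d (log2 fold change -0.63, adjusted p = 0.00728) and Bcl2l14 (-0.67, adjusted p = 0.00508). Bcl2a1d lost its call without WT replicate 3 or WT+PI3Kdi replicate 3 (adjusted p up to 0.0566), and Bcl2l14 lost its call without the latter through its fold (-0.58). Bcl2a1d encodes a copy of the guardian A1 whose reads can be shared with near-identical paralogues, and Bcl2l14 was at most at 0.21 FPKM.

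In the death receptor pathway all 11 genes were measured and 1 was called, Fasl, the ligand with which CTL trigger the receptor FAS. Under PI3Kdi it was higher in FOXO1-GFP KO CTL, at 46.34 to 58.94 FPKM against 31.42 to 35.51 FPKM. The log2 fold change was 0.63 (adjusted p = 0.0435), where 1.45% of all genes were called. Leaving out any 1 of the 6 libraries lost this call, with adjusted p from 0.0535 to 0.169. Without PI3Kdi Fasl was at 36.84 to 52.09 FPKM in FOXO1-GFP KO and 30.23 to 34.46 FPKM in WT CTL, and was not called. Of the 18 genes of the apoptosome, caspases and caspase inhibitors, and of 14 measured regulators of BCL2 family mRNA or protein, 0 were called in any comparison with or without the block. In these fits 0% to 2.79% of all genes were called. The B cell marker Ighm was lower in FOXO1-GFP KO CTL with PI3Kdi (log2 fold change -2.38) and Igkc was listed at 0 there against 1.38 to 2.84 FPKM. Without PI3Kdi Ighm was also called lower, at 2.35 to 3.71 FPKM in FOXO1-GFP KO against 7.61 to 10.33 FPKM in WT CTL. That call was made without and with the block, where 0.331% and 0.233% of all genes were called. The part of Ighm and Igkc in the genotype results was not tested. With the block Igkc and the CD4 T cell marker Cd4 were higher with PI3Kdi in WT CTL (log2 fold changes 1.35 and 0.68), Cd4 at 0.83 to 0.95 FPKM. These were 1 of the 5 B cell and 1 of the 2 CD4 T cell markers tested. Of the other B cell markers Ighm gave 0.51, Cd79b 0.02, H2-Ab1 -0.42 and Cd74 -0.48, none called, and the median of the list was 0.02. Cd40lg, the other CD4 T cell marker, gave -0.05. The part of these markers in the Bcl2l11 result was not tested.

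The mRNA most like Bcl2l11 over the 12 libraries, among 9547 genes, were Klhl6 (Pearson r = 0.962), Cerk (0.948) and Ipcef1 (0.941). These values describe libraries that share replicate, genotype and treatment, and are not independent.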

How the data were processed

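Libraries came from 300 ng of RNA with a stranded mRNA kit and were sequenced with paired-end reads. Per the labels and the study's methods, the authors aligned reads with STAR 2.7.1a to GRCm38.p6, counted them per Ensembl gene, removed low genes and scaled libraries by TMM in edgeR, and deposited FPKM, rounded to 2 decimals, for 13283 genes. The strand setting of the counting is not given in the sources used here; exons of Bak1, Bid, Bax and Bcl2 overlap another gene over 25.5, 17.7, 12.2 and 6.09% of their length.

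FPKM + 0.1 on the log2 scale was fitted with limma 3.58.1 (R 4.3.3), with 4 group means, a variance trend and 5 contrasts. This scale understates the change of low genes. Calls needed a fold change beyond 1.5 and p under 0.05 after Benjamini-Hochberg adjustment across the 13283 genes. Deviations of same-numbered vehicle and PI3Kdi libraries correlated at 0.594 to 0.838 within genotypes and at -0.499 to 0.730 across them. The numbers were therefore taken to pair libraries within a genotype (consensus correlation 0.757), although no source says that a pair shares a mouse. P-values measure the spread between these cultures. The fit was tested on simulated data. Depth, recovered from genes up to 400 bp long, gave the reads for voom; 98.8 to 99.7% of held-out values came out whole within 0.2 reads.

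The members and gene lists were chosen with earlier results of these data known. Named by rule were the members, Foxo1, called genes of the lists, and the 3 genes most correlated with a called member; other cell type markers are named where their levels are given or where they were not tested.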

Additional observations from a re-analysis of the deposited data

How the results depend on the processing

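The count of members called was 0 in all 5 comparisons without a block, and 1 (Bcl2l11) for PI3Kdi in WT CTL with the replicate block within genotype, with that block as fixed terms, and with voom on estimated reads and the block. Leaving out single libraries from the blocked fit, an alternative chosen after seeing the data, gave 1 to 1 in that comparison. A replicate block shared by all 4 groups did not call it (adjusted p = 0.106). The block changed no other call of a member. The other alternatives were pseudocounts of 1 and 0.01 FPKM, a minimum of 1 FPKM, which removed Bmf, equal FPKM sums, quantile normalization, no variance trend, only the 6 libraries compared, voom without the block and leaving out each library; none of these called a member. The log2 fold change of Bcl2l11 in WT was 0.72 to 1.08 without single libraries, and never changed sign. Of 50 pairs of a member and a comparison, 16 had another sign in at least 1 alternative, all with a log2 fold change of at most 0.20, so their direction is not established. Depth was enough for all members but Bmf, for which 21.1 reads were the fewest.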
